A study of Mus musculus with 24 samples.

Results

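The response of mouse bone to a FLASH proton beam was described across all expressed genes, by setting the 4 bone libraries labelled F-PRT against the 4 bone libraries labelled Untreated. These 8 libraries were taken by tissue and treatment label from the 24 of a series on bone and skin. F-PRT is read here as FLASH proton radiotherapy, in which the dose is given at an ultra-high rate, and S-PRT as standard proton radiotherapy at a conventional rate. The groups used were bone F-PRT, bone S-PRT and bone Untreated, and skin F-PRT and skin Untreated for a comparison of tissues, with 4 libraries each. All came from female mice 10 weeks old, and the title of the series names a sarcoma model. PolyA RNA was read on a HiSeq 4000 as 2 reads of 150 bases per fragment. The labels call the libraries of a group biological replicates; strain, dose, time after irradiation, the bone sampled, whether the mice bore a tumour and whether a library is 1 mouse are not stated in them. The p-values therefore measure the spread between these libraries. Bone is mineralised tissue around marrow, where red cells, platelets, granulocytes and B cells are made, and the RNA held both.

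Ionising radiation breaks DNA, and cells answer through the p53 pathway, in which a stabilised transcription factor switches on genes of cell cycle arrest, such as Cdkn1a, and of cell death, such as Bbc3 and Bax. Dividing blood precursors in the marrow are among the most radiosensitive cells of the body, while stromal cells, fat cells, macrophages and bone-forming cells divide little. Interferon genes form a further arm: the cytosolic sensors and the transcription factors STAT2 and IRF9 raise antiviral effectors such as the IFIT proteins.

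Total expected counts were 15150743 to 16577347 per F-PRT library, 13832813 to 17361430 per S-PRT library and 10909649 to 16211858 per Untreated library. Defining markers of bone and marrow were present in every library of both groups; in TPM, the deposited value per transcript length, Bglap stood at 2180 to 3231 in F-PRT bone against 529 to 1140 in Untreated bone, and Alas2 at 194 to 277 against 320.1 to 464. Untreated 1 stood apart, with the lowest total, 11.5% of its counts in 7SK, 7SL and related structural RNAs (3.40% to 4.58% in F-PRT bone and 5.71% to 8.38% in the other Untreated libraries), more cartilage RNA and less immune cell RNA. F-PRT 3 had the most skeletal muscle RNA and the least cartilage RNA. F-PRT 2 had the most keratinocyte RNA, with a mean log2 CPM of 4.00 over the 21 keratinocyte genes tested, against -0.91, 1.90 and 2.76 in F-PRT 1, 3 and 4 and -0.82 to -0.38 in Untreated bone. CPM here is a gene's share of its library's counts, scaled between libraries. Keratinocyte RNA was thus high in 3 of 4 F-PRT libraries and low in every Untreated library, so its level and the beam cannot be fully told apart. A fit with that level as a covariate called 2549 genes, 1166 higher and 1383 lower, against 6161 without it. In deposited TPM the structural RNA models took 33.7% to 40.8% in F-PRT bone and 42.8% to 59.4% in Untreated bone, and the median of all genes was 0.51 higher in F-PRT bone on the log2(TPM + 1) scale. Changes below are from counts, and TPM is given beside them where it turns the sign of a list's median.

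**Figure D1:**
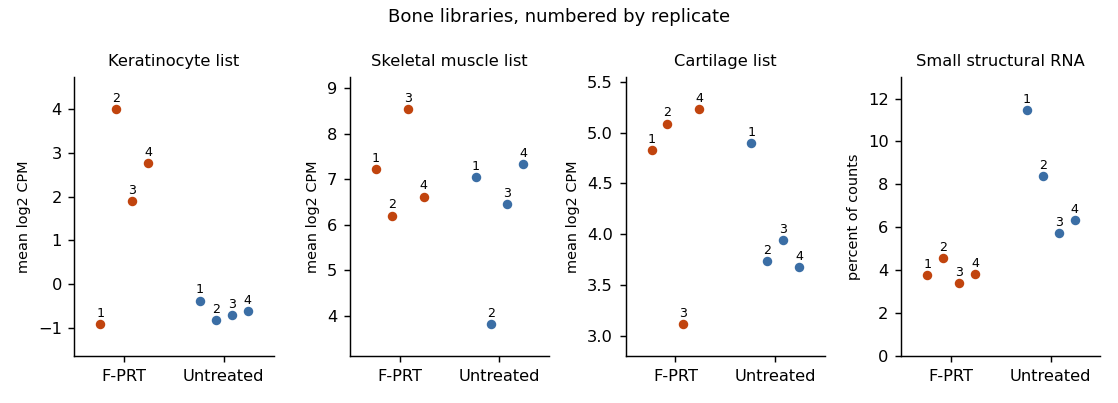
Mean log2 CPM of the keratinocyte, skeletal muscle and cartilage lists and the percent of counts in small structural RNAs, 1 point per library numbered by replicate, for F-PRT and Untreated bone. Keratinocyte RNA reaches 4.00 in F-PRT 2, muscle RNA 8.54 in F-PRT 3, and the structural RNA share is highest in Untreated 1 at 11.5%.

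Of 18848 genes tested, 2925 rose (15.5%) and 3236 fell (17.2%) after F-PRT, so 32.7% passed at an adjusted p under 0.05. Their size was moderate for most: 886 rose and 1116 fell by 2-fold or more, and 42 rose and 89 fell by 8-fold or more. The median log2 change over all genes was -0.008. F-PRT and Untreated libraries did not overlap in CPM for 6036 genes (32.0%), of which 5137 passed the test. Leaving out the 3 libraries that stood apart, F-PRT 2, F-PRT 3 and Untreated 1, gave 2419 higher and 2250 lower genes, and 66.0% of the genes called with all libraries were called there. In whole tissue, fewer cells of a type and less RNA per cell cannot be told apart, nor can more cells and more RNA per cell. CPM is a share of counts, so a gene can also rise because other RNA was lost. Summed over a list of globin, membrane and regulator genes of red cells, CPM was 20397 to 31568 in F-PRT bone and 58465 to 81907 in Untreated bone. The part of such losses in the rises was not tested. These limits hold for every cell type below.

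Among genes of at least 2 CPM whose groups did not overlap, the 8 largest rises were Krt10, Cxcl13, Eda2r, Xcr1, Cma1, Sfrp2, Zfp365 and Cdkn1a. Krt10 is a keratinocyte gene and moves with the keratinocyte RNA described above. Further keratinocyte genes had rises near or above the log2 6.59 of Krt10 but overlapped between the groups, among them Krt14 (log2 8.09), Krt5 (6.76) and Krt2 (6.55). The 8 largest falls under the same limits were the neutrophil lineage genes Ltf, Ly6g, Olfm4, Camp, Ngp, Lcn2, Itgb2l and S100a9; the eosinophil gene Ear1 fell by more than S100a9 (-5.06 for Ear1 and -4.96 for S100a9) but overlapped. The 6 genes of smallest p also all fell, and among them Mpig6b, Ppbp and Rab27b belong to megakaryocytes and platelets. They also included Syne1, which encodes the nuclear envelope protein nesprin-1, and Adpgk, which encodes an ADP-dependent glucokinase. Syne1 stood at 139, 125, 138 and 137 CPM in F-PRT bone, against 717, 769.8, 679.6 and 782 CPM in Untreated bone, and Adpgk at 47.7, 46.1, 44.5 and 48.1 CPM in F-PRT bone, against 264, 359, 349 and 399.7 CPM in Untreated bone. Each F-PRT library lay far below each Untreated library for both genes (log2 change -2.45, SE 0.10, adjusted p = 9.38e-09 for Syne1, and log2 change -2.88, SE 0.12, adjusted p = 9.38e-09 for Adpgk). Zfp365 encodes a zinc finger protein with a known part in genome stability, and was at 9.0, 11.4, 9.13 and 13.3 CPM in F-PRT bone, against 1.95, 1.37, 0.934 and 1.21 CPM in Untreated bone (log2 change 3.00, SE 0.25, adjusted p = 2.36e-06). Its groups did not overlap.

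**Figure D2:**
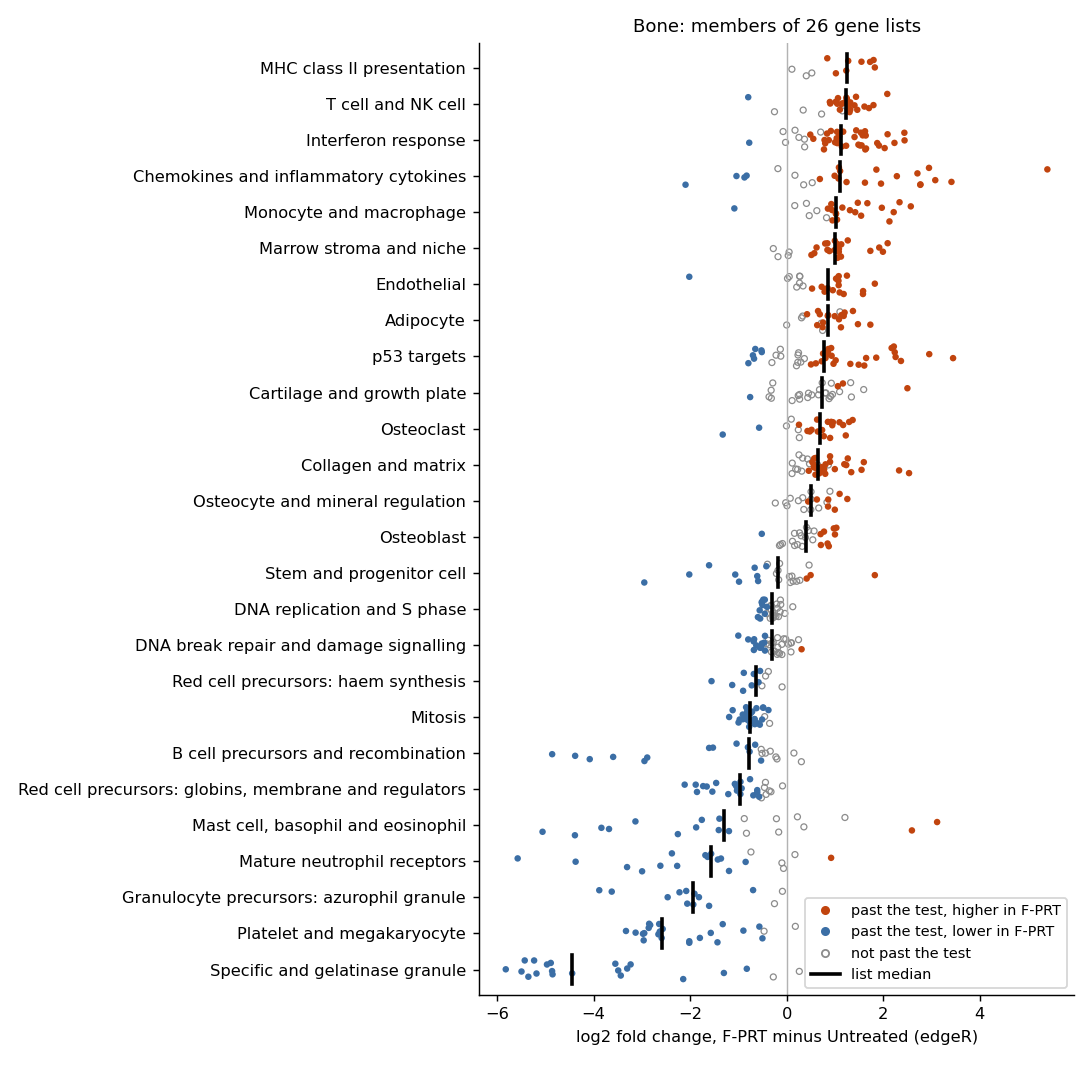
Log2 change, F-PRT minus Untreated bone, of every tested member of 26 gene lists, 1 point per gene, coloured by whether it rose, fell or did not pass; the bar is the list's median. Platelet and granule lists lie far to the left (medians -2.58 and -4.44) and interferon, macrophage, T cell and stroma lists to the right (1.12, 1.02, 1.22 and 1.00).

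Targets of p53 mostly rose, with the arrest gene Cdkn1a among the largest changes of the tissue. Of 40 tested targets, 24 rose, 6 fell and 10 did not pass, beside 15.5% and 17.2% of all genes tested, with a median log2 change of 0.78. The groups did not overlap for 28 of them, beside 32.0% of all genes. Cdkn1a (chr17:29090976-29100727, GRCm38), which encodes the cyclin-dependent kinase inhibitor p21, stood at 109, 139, 99.4 and 169 CPM in F-PRT bone, against 18.1, 15, 18.7 and 14.8 CPM in Untreated bone. Every F-PRT library lay far above every Untreated one, at a fitted fold of 7.74 (log2 change 2.95, SE 0.17, adjusted p = 1.25e-07). Eda2r, a receptor for ectodysplasin A2, was at 19.2, 24.4, 26.5 and 24 CPM in F-PRT bone, against 4.23, 1.07, 1.93 and 1.81 CPM in Untreated bone (log2 change 3.45, SE 0.31, adjusted p = 4.71e-06). No library of one group reached the other. Zmat3, which encodes an RNA-binding protein, averaged 76 ± 10.7 CPM in F-PRT bone, against 16.3 ± 2.20 CPM in Untreated bone (SD, n = 4 each; log2 2.22). Ephx1, an epoxide hydrolase, averaged 104 ± 11.6 CPM in F-PRT bone, against 22.9 ± 4.03 CPM in Untreated bone (log2 2.17). Among the death genes Bbc3 (PUMA) changed by log2 0.86, Bax by 0.85, Pmaip1 (NOXA) by 1.61 and Tnfrsf10b, a TRAIL receptor, by 1.86, and all 4 rose. Gdf15, a secreted stress cytokine, and Phlda3, an inhibitor of AKT signalling, rose by 2.37 and 2.24, and the cyclin gene Ccng1 by 1.49.

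The response was uneven within the list. Mdm2, whose product marks p53 for destruction, was at 80.3, 97.6, 91.1 and 91.8 CPM in F-PRT bone, against 77.1, 78.3, 80.8 and 77 CPM in Untreated bone. The groups overlapped, and Mdm2 did not pass (log2 change 0.20, SE 0.09, adjusted p = 0.0922; 0.0474 with DESeq2 and 0.0491 without F-PRT 1). Trp53inp1, a further p53 feedback gene, did not pass either (log2 change 0.23, SE 0.15, adjusted p = 0.272). The 6 targets that fell were the antiproliferative gene Btg2 (-0.68), Pidd1 (-0.52), the nucleotide excision repair gene Xpc (-0.65), the phosphatase gene Ptp4a3 (-0.79) and the dividing-cell genes Ckap2 (-0.70) and Gtse1 (-0.52). The keratinocyte covariate left 18 targets higher and 3 lower. A p53 site, scored as a pair of adjoining copies of the site's core with at most 3 mismatches outside the fixed C and G, was found in 11 of 43 RefSeq promoter windows of these targets (25.6%), against 453 of 32851 windows of all genes (1.4%). Each window ran from 250 bases before to 50 after a gene's start.

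Genes of DNA break repair fell or did not pass, apart from Xrcc5. Of 35 tested, 1 rose and 13 fell, beside 15.5% and 17.2% of all genes, with a median log2 change of -0.31. In TPM the median was 0.40, which is 0.11 below that of all genes. Fanca, a Fanconi anaemia core gene, was at 29.2, 23.2, 26 and 22.1 CPM in F-PRT bone, against 41.4, 46.5, 34.6 and 39.1 CPM in Untreated bone (log2 change -0.68, SE 0.12, adjusted p = 0.000994). Lig4, the ligase of end joining, was at 7.17, 8.26, 8.15 and 9.64 CPM in F-PRT bone, against 10.2, 13.9, 15.5 and 13.5 CPM in Untreated bone (log2 change -0.68, SE 0.14, adjusted p = 0.00243). The groups did not overlap for either gene, nor for Rad52 (log2 -0.45), which encodes a recombination factor. The sensor kinase genes Atm, Atr and Prkdc were at log2 0.09, -0.06 and -0.15 and did not pass. The 13 falls became 8 without F-PRT 2, F-PRT 3, Untreated 1 or Untreated 2, 7 without F-PRT 4, 4 without the 3 libraries that stood apart, and 1 with the keratinocyte covariate, under which neither Fanca (0.0521) nor Rad52 (0.0538) passed.

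Mitosis genes fell almost throughout the list: 30 of 32 fell and none rose, with a median log2 change of -0.76. The exceptions were Ccnb1 (log2 -0.46, adjusted p = 0.0529), which encodes cyclin B1, and Plk1 (-0.35, 0.142), which encodes polo-like kinase 1; Ccnb1 passed in 8 alternatives (0.0143 to 0.0489), DESeq2, voom, the 1 CPM filter, the 8 compared libraries, the replicate block and the fits without F-PRT 1, S-PRT 3 or S-PRT 4. Cenpa, the centromeric histone H3 variant, was at 70.5, 51.8, 58.8 and 43.5 CPM in F-PRT bone, against 107, 109.6, 103 and 103 CPM in Untreated bone. All F-PRT libraries lay below all Untreated ones (log2 change -0.91, SE 0.15, adjusted p = 0.000521). Cdc25c, the phosphatase that opens mitosis, was at 12, 10.3, 9.62 and 6.53 CPM in F-PRT bone, against 25.4, 23.2, 20.3 and 19.2 CPM in Untreated bone (log2 change -1.19, SE 0.20, adjusted p = 0.000697), and Cenpf, a kinetochore protein gene, changed by log2 -1.12. Mki67, the usual marker of cycling cells, was at 1829, 1446, 1442 and 1077 CPM in F-PRT bone, against 2889, 2723, 2307 and 2290.0 CPM in Untreated bone (log2 change -0.82, SE 0.20, adjusted p = 0.00682; 0.0647 without the 3 libraries that stood apart). F-PRT 1 was the highest and F-PRT 4 the lowest F-PRT library for this list, at mean log2 CPM of 6.20 and 5.56, while Untreated bone spanned 6.59 to 6.73. The list's median was -0.03 in TPM, which is 0.54 below that of all genes, and 12 of the 30 that fell had a positive difference there. With the keratinocyte covariate 5 fell, and Mki67 did not pass.

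Many mitosis genes carry the cell cycle homology region, TTTGAA, near their start, an element bound by the DREAM complex, through which p53 and p21 are known to repress such genes. These letters were found on either strand in 22 of 29 promoter windows of the tested mitosis genes (75.9%), against 5878 of 32851 windows of all genes (17.9%). The 250 bases before the start of Cdc20, the activator of the anaphase-promoting complex, are shown as an example, since its match (capitals) lies 12 bases before the start (RefSeq, GRCm38.p6, chr4:118437344-118437593, minus strand, 5′ to 3′).
Cdc20: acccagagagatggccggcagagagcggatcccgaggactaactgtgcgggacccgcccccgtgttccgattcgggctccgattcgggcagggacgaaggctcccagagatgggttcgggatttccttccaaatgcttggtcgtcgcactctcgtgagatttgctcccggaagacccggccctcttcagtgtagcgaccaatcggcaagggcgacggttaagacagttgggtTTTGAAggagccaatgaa
Cdc20 itself was at 39.2, 29.6, 28.1 and 22.5 CPM in F-PRT bone, against 32.7, 48.5, 48.1 and 52.5 CPM in Untreated bone, with overlap between the groups (log2 change -0.61, SE 0.18, adjusted p = 0.0208), and it did not pass without F-PRT 3, F-PRT 4, Untreated 2, Untreated 3 or Untreated 4 (adjusted p 0.0529, 0.0681, 0.0547, 0.0508 and 0.0615).

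Of 30 DNA replication genes 10 fell and none rose, beside 17.2% and 15.5% of all genes, with a median log2 change of -0.30. Those that fell included the S-phase transcription factor gene E2f1 (log2 -0.56), the replisome gene Gins3 (-0.52) and the thymidine kinase gene Tk1 (-0.45). The MCM helicase genes Mcm2 to Mcm7 lay between log2 -0.29 (Mcm6) and -0.04 (Mcm4) and did not pass, nor did the sliding clamp gene Pcna (-0.29). The direction depends on the scale: the TPM median was 0.39, 0.12 below that of all genes, and all 10 that fell were positive in TPM. The 10 became 4 without F-PRT 2 or Untreated 2, 6 without F-PRT 3, 3 without F-PRT 4, 2 without the 3 libraries that stood apart, and 0 with the keratinocyte covariate.

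Genes of the red cell lineage fell, among them those of haemoglobin and of its haem. Of 27 globin, membrane and regulator genes 20 fell and none rose (median log2 -0.96), and of 12 haem synthesis genes 8 fell and none rose (median -0.63). Hba-a1, an alpha globin gene whose reads are shared with the near-identical Hba-a2, was at 4084, 2724, 2753 and 2481 CPM in F-PRT bone, against 7224, 9851, 9749 and 11105 CPM in Untreated bone. F-PRT 1 was the highest F-PRT library and still lay below every Untreated library (log2 change -1.66, SE 0.22, adjusted p = 9.13e-05). Bpgm, the enzyme that makes the regulator of oxygen release from haemoglobin, was at 73, 53.3, 53.7 and 49.5 CPM in F-PRT bone, against 245, 252, 240.3 and 254 CPM in Untreated bone (log2 change -2.11, SE 0.17, adjusted p = 1.84e-06). Alas2, the first enzyme of erythroid haem synthesis, was at 483, 377, 365 and 307 CPM in F-PRT bone, against 988, 1152, 1145 and 1221 CPM in Untreated bone (log2 change -1.56, SE 0.17, adjusted p = 1.74e-05). The groups did not overlap in these 3 genes. Slc25a37, the mitochondrial iron importer, changed by log2 -1.13, and the beta globin gene Hbb-bs, which shares reads with Hbb-bt, by -1.88. The regulators of early red cell precursors Gata1, Klf1 and Gfi1b were at log2 -0.36, -0.32 and -0.09, and the transferrin receptor gene Tfrc at -0.51; none of these 4 passed, though Tfrc did without Untreated 4 (adjusted p = 0.0385) and with the replicate block (0.0475). Without the 3 libraries that stood apart 13 and 4 of the 2 lists fell, and 8 and 2 with the keratinocyte covariate; the haem list's median was 0.09 in TPM, 0.42 below that of all genes.

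Platelet and megakaryocyte genes fell by a median log2 of -2.58, 22 of 24 tested, and 20 to 23 fell when 1 library or the 3 that stood apart were left out and with either covariate. Ppbp, a chemokine stored in platelet granules, was at 97.7, 80.5, 87.8 and 70.6 CPM in F-PRT bone, against 582, 679, 693 and 692 CPM in Untreated bone. The F-PRT libraries lay within a narrow band far below the Untreated ones (log2 change -2.98, SE 0.13, adjusted p = 1.22e-08). Itga2b, the platelet integrin CD41, was at 24.3, 18.1, 16.7 and 18.5 CPM in F-PRT bone, against 132, 151, 129 and 147 CPM in Untreated bone (log2 change -2.85, SE 0.13, adjusted p = 1.73e-08). Gp6, the platelet collagen receptor, changed by -2.96, Gp9 of the von Willebrand factor receptor by -2.64, Rab27b of granule secretion by -2.02 and the inhibitory receptor Mpig6b by -2.81. Pf4, platelet factor 4, fell less, at 21.3, 19.8, 17.3 and 19.8 CPM in F-PRT bone, against 49, 72.5, 73.3 and 77 CPM in Untreated bone (log2 change -1.80, SE 0.15, adjusted p = 2.02e-06), and Untreated 1 held the lowest Untreated value. The 2 that did not pass were Selp (-0.47), which is also an endothelial adhesion gene, and the ADP receptor gene P2ry12 (0.18). Vwf, made by megakaryocytes and by endothelium, fell by -2.02.

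Neutrophil genes fell, and the specific granule list had the lowest median of the 37 lists. The azurophil granules, filled in promyelocytes, had 11 of 13 tested genes lower and a median log2 of -1.93. The specific and gelatinase granules, filled in later stages, had 19 of 21 lower and a median of -4.44. Receptors of mature neutrophils had 14 of 19 lower, 1 higher and a median of -1.56. Ltf (chr9:111019271-111042767, GRCm38), which encodes lactoferrin of specific granules, was at 32, 18.3, 28.4 and 21.1 CPM in F-PRT bone, against 527, 1372, 1756 and 1976 CPM in Untreated bone. Untreated 1 had the lowest Untreated value, and it was above every F-PRT value (log2 change -5.82, SE 0.51, adjusted p = 3.63e-06). Ly6g, the surface marker used to define mouse neutrophils, was at 1.23, 0.708, 1.52 and 1.31 CPM in F-PRT bone, against 18.3, 49.5, 74.2 and 84.7 CPM in Untreated bone (log2 change -5.57, SE 0.48, adjusted p = 2.83e-06). Camp, the cathelicidin gene, was at 8.23, 6.13, 6.94 and 5.79 CPM in F-PRT bone, against 89.3, 331, 341 and 403 CPM in Untreated bone (log2 change -5.42, SE 0.46, adjusted p = 2.61e-06). S100a8, a subunit of the abundant complex calprotectin, was at 85.9, 84.6, 91.2 and 55.6 CPM in F-PRT bone, against 432, 2277, 3031 and 3400.4 CPM in Untreated bone (log2 change -4.85, SE 0.60, adjusted p = 5.14e-05). In these genes Untreated 1 was nearest to the F-PRT libraries without reaching them.

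Genes of earlier granulocyte stages fell too. Elane, neutrophil elastase, was at 53.7, 40.0, 40.5 and 39.9 CPM in F-PRT bone, against 69.1, 238, 307 and 347 CPM in Untreated bone (log2 change -2.46, SE 0.42, adjusted p = 0.000615). Mpo, myeloperoxidase, changed by log2 -1.82, and Cebpe, the transcription factor of the step to specific granules, by -3.62. Fcnb, a ficolin of immature granulocytes, changed by -3.88, and the transcription factor genes Gfi1 and Myb by -2.06 and -1.61. Mmp9, a gelatinase gene also made by osteoclasts, was at 0.26 and did not pass, while its granule neighbour Mmp8 fell by 4.89 on the log2 scale. The receptors Fpr2, which senses formyl peptides, and Cxcr2, which senses chemokines, changed by -2.99 and -1.56. The single rise was Ptafr (log2 change 0.92, SE 0.26, adjusted p = 0.0153), the receptor for platelet-activating factor, which macrophages also express; it did not pass without the 3 libraries that stood apart (0.0577) or with the keratinocyte covariate. With that covariate 7 azurophil genes fell, and Mpo did not pass (0.106).

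**Figure D3:**
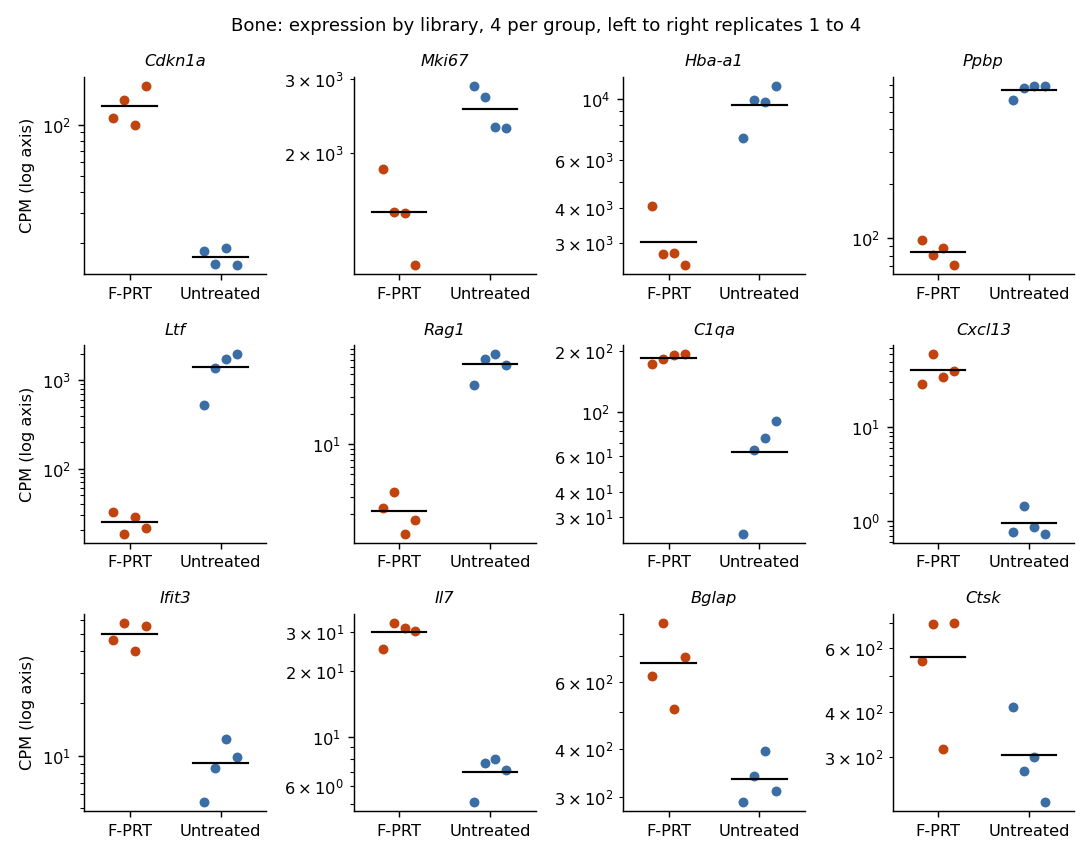
CPM on a log axis of 12 genes in each of the 4 F-PRT and 4 Untreated bone libraries, 1 point per library and a line at each mean. F-PRT points lie below Untreated points for Mki67, Hba-a1, Ppbp, Ltf and Rag1, and above them for Cdkn1a, C1qa, Cxcl13, Ifit3, Il7 and Bglap; Ctsk rose with overlap.

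Of 20 eosinophil, basophil and mast cell genes tested, 11 fell and 2 rose (median log2 -1.29), beside 17.2% and 15.5% of all genes. The eosinophil granule genes Ear1 (log2 -5.06), Prg2 (-3.84) and Epx (-3.13) fell. For Prg2 the libraries gave 11.6, 6.96, 8.70 and 10.0 CPM in F-PRT bone, against 6.40, 49.5, 188 and 287 CPM in Untreated bone, and Untreated 1 overlapped the F-PRT range. Untreated 4 carried much of these falls, and without it the changes were -4.23, -3.13 and -2.25, each past the test; with the keratinocyte covariate none of these 3 passed (adjusted p = 0.0527, 0.114 and 0.167). Prss34, a basophil protease gene, was at 7.29, 6.49, 5.78 and 8.03 CPM in F-PRT bone, against 15.4, 36.6, 37.4 and 41.6 CPM in Untreated bone (log2 change -2.25, SE 0.28, adjusted p = 5.05e-05). The 2 that rose were the connective tissue mast cell protease genes Cma1, at 5.23, 3.19, 5.78 and 2.86 CPM in F-PRT bone, against 0.759, 0.381, 0.667 and 0.201 CPM in Untreated bone (log2 change 3.12, SE 0.46, adjusted p = 0.000233), and Tpsb2, at 2.88, 2.30, 2.31 and 1.99 CPM in F-PRT bone, against 0.542, 0.305, 0.534 and 0.201 CPM in Untreated bone (log2 change 2.59, SE 0.45, adjusted p = 0.000689). The groups did not overlap for either gene. F-PRT 1, the F-PRT library with keratinocyte RNA at the Untreated level, had 5.23 CPM of Cma1 and 2.88 CPM of Tpsb2, and the part of skin RNA in these rises was not tested. With the keratinocyte covariate 3 fell and 2 rose.

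Genes of B cell precursors fell, while those of mature B cells changed in both directions. Of 21 precursor and recombination genes 13 fell and none rose, with a median log2 of -0.77 (0.06 in TPM, 0.44 below that of all genes). The recombinase gene Rag1 was at 2.29, 3.36, 1.28 and 1.74 CPM in F-PRT bone, against 39.6, 70.8, 79.4 and 62.6 CPM in Untreated bone. Even Untreated 1, again the lowest Untreated library, stood above every F-PRT library (log2 change -4.86, SE 0.27, adjusted p = 9.47e-08). Rag2 changed by log2 -4.38, Dntt, the enzyme that adds bases at the joins, by -2.95, and the surrogate light chain genes Vpreb1 and Igll1 by -4.08 (-4.75 without F-PRT 1) and -3.59. Genes shared with later B cells were closer to no change: Cd79a was at -0.53, Blnk at -0.34 and Ebf1 at -0.22, and none of these 3 passed. Of 25 mature B cell and plasma cell genes 8 fell and 4 rose, beside 17.2% and 15.5% of all genes. Their median was -0.05 (0.63 in TPM, 0.13 above that of all genes). Ms4a1 (CD20, 0.09), Igkc (-0.02) and Ighm (-0.73) did not pass. Of those that rose, Cd83, an activation marker, changed by 1.33 and Prdm1, which drives plasma cell fate, by 0.98; Cd37, a tetraspanin of leukocytes, changed by -0.85. The 8 falls became 5 without F-PRT 1, F-PRT 2, F-PRT 3, Untreated 2 or Untreated 3, and with the keratinocyte covariate 3 fell and 1 rose, and Prdm1 did not pass.

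Of 24 stem and progenitor genes 9 fell and 3 rose, beside 17.2% and 15.5% of all genes. Their median was -0.17 (0.45 in TPM, 0.05 below that of all genes). The falls included Vwf and Slamf1 (-1.61), which encodes the stem cell marker CD150, and the transcription factor gene Meis1 (-1.06). Megakaryocytes also express Vwf and Slamf1. Kit (-0.17), the stem cell factor receptor, Cd34 (0.08) and Mecom (0.13) did not pass, though Kit did without the 3 libraries that stood apart (-0.36, adjusted p = 0.0488). Ly6a, which encodes Sca-1 and is also an endothelial and interferon-induced gene, was at 70.3, 86.4, 88.4 and 111 CPM in F-PRT bone, against 20.3, 18.5, 32.6 and 28.6 CPM in Untreated bone (log2 change 1.83, SE 0.18, adjusted p = 9.83e-06). The 3 rises became 1 without Untreated 2, without Untreated 3 or with the keratinocyte covariate.

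Macrophage genes rose, 18 of 25 tested with 1 fall, at a median log2 of 1.02. C1qa, a chain of complement C1q made by resident macrophages, was at 174, 184, 191 and 193 CPM in F-PRT bone, against 24.7, 64.9, 74.4 and 89.8 CPM in Untreated bone (log2 change 1.54, SE 0.32, adjusted p = 0.00279). All F-PRT libraries were above all Untreated ones, and Untreated 1 was the lowest. Siglec1, the sialoadhesin of marrow macrophages, was at 282, 337, 313 and 447 CPM in F-PRT bone, against 35.9, 84.1, 91.6 and 103 CPM in Untreated bone (log2 change 2.13, SE 0.29, adjusted p = 0.000112). Csf1r, the growth factor receptor of the lineage, changed by 1.02, Ms4a7 by 2.22, the scavenger receptor gene Marco by 2.34 and the Fc receptor gene Fcgr1 by 1.97. Lyz1, a lysozyme gene whose reads are hard to part from those of Lyz2, changed by 2.57, while Lyz2, which neutrophils also make, was at -0.83 (adjusted p = 0.0308, and not past the test without any 1 of F-PRT 1 to 4 or of Untreated 2 to 4, with either covariate, the replicate block or the 8 compared libraries). The 1 fall was Ly6c2, a marker of inflammatory monocytes (log2 change -1.08, SE 0.35, adjusted p = 0.0293), which did not pass without F-PRT 1, F-PRT 3, F-PRT 4, Untreated 3 or Untreated 4, nor with the keratinocyte covariate, the replicate block or the 8 compared libraries.

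Of 16 dendritic cell genes 7 rose and 2 fell, beside 15.5% and 17.2% of all genes. Xcr1, the chemokine receptor of cross-presenting dendritic cells, was at 6.29, 10.3, 10.7 and 6.72 CPM in F-PRT bone, against 1.74, 0.762, 1.13 and 0.268 CPM in Untreated bone (log2 change 3.19, SE 0.36, adjusted p = 2.57e-05). Clec10a, a lectin of dendritic cells and macrophages, changed by 2.21, and Itgax (CD11c) by 0.97. Clec9a, a further marker of the Xcr1 cells, was at -0.18 and did not pass, and Siglech, of plasmacytoid cells, fell (log2 change -1.40, SE 0.31, adjusted p = 0.00358). The 2 falls became 1 without F-PRT 1, F-PRT 4, Untreated 2 or Untreated 3.

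T cell and NK cell genes rose, 23 of 28 tested with 1 fall, at a median of 1.22. Eomes, a transcription factor of NK and memory T cells, was at 7.59, 10.6, 11.9 and 8.90 CPM in F-PRT bone, against 2.06, 3.13, 3.33 and 3.28 CPM in Untreated bone (log2 change 1.70, SE 0.21, adjusted p = 6.34e-05). Zap70, the kinase of the T cell receptor, was at 4.70, 5.54, 5.96 and 5.47 CPM in F-PRT bone, against 2.06, 2.82, 1.93 and 1.88 CPM in Untreated bone (log2 change 1.32, SE 0.19, adjusted p = 0.000158). Neither gene overlapped between the groups, and Zap70 was at a few CPM. The coreceptor genes Cd4 and Cd8a changed by 1.46 and 1.25, the activating receptor genes Klrk1 and Ncr1 by 1.30 and 1.10, and the granzyme gene Gzmb by 2.08. The exception that fell was the adaptor gene Lat (-0.80), which platelets also express. In the fit with the keratinocyte covariate 14 rose, and Ncr1 did not pass.

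Interferon response genes rose in 36 of 44 tested, with 1 fall and a median log2 of 1.12, beside 15.5% and 17.2% of all genes that rose and fell. The groups did not overlap for 37 of them, beside 32.0% of all genes. Ifit3 (chr19:34583531-34588731, GRCm38), an antiviral effector that is hard to part from Ifit3b in reads, was at 46.2, 58.1, 40.0 and 55.2 CPM in F-PRT bone, against 5.42, 8.54, 12.5 and 9.78 CPM in Untreated bone. Every F-PRT library lay above every Untreated one, at a fitted fold of 5.43 (log2 change 2.44, SE 0.24, adjusted p = 8.88e-06). Ifi44, an interferon-induced protein gene, was at 18.9, 29.3, 19.9 and 25.9 CPM in F-PRT bone, against 3.91, 4.80, 5.47 and 5.63 CPM in Untreated bone (log2 change 2.23, SE 0.18, adjusted p = 1.5e-06). Ifit2 was at 52.4, 72.7, 55.3 and 68.6 CPM in F-PRT bone, against 17.6, 21.2, 22.5 and 18.6 CPM in Untreated bone (log2 change 1.64, SE 0.16, adjusted p = 8.37e-06). Iigp1, an immunity-related GTPase gene, changed by 2.44, Phf11d by 2.03, the transcription factor genes Irf7 and Stat2 by 1.49 and 0.87, and the RNA sensor genes Ifih1 and Ddx58 by 0.80 and 0.84. The exception was Rsad2, the antiviral enzyme viperin, at 228, 206, 168 and 157 CPM in F-PRT bone, against 371, 299, 347 and 281 CPM in Untreated bone. Every F-PRT library lay below every Untreated one (log2 change -0.78, SE 0.17, adjusted p = 0.00324), though with the keratinocyte covariate Rsad2 did not pass. Isg15, the ubiquitin-like modifier, overlapped between the groups and did not pass (log2 change 0.37, SE 0.21, adjusted p = 0.194), nor did Irf9 (0.17), Oas3 (0.25) and Cmpk2 (-0.02), the neighbour of Rsad2.

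The core of the interferon-stimulated response element, 2 copies of GAAA separated by 2 bases, was found on either strand in 22 of 38 promoter windows of the tested interferon genes (57.9%), against 1131 of 32851 windows of all genes (3.4%). Ifit3 and Rsad2, which changed in opposite directions, both hold it, and the 250 bases before their starts are shown for that reason, with the matches in capitals (RefSeq, GRCm38.p6, 5′ to 3′). Ifit3 (chr19:34583279-34583528, plus strand) has 2 matches, 146 and 112 bases before the start, and Rsad2 (chr12:26456453-26456702, minus strand) has 1, 110 bases before it.
Ifit3: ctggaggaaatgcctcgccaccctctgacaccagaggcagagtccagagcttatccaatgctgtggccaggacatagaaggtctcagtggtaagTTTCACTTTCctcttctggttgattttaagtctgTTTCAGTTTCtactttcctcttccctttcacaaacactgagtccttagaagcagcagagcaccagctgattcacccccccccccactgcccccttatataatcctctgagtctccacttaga
Rsad2: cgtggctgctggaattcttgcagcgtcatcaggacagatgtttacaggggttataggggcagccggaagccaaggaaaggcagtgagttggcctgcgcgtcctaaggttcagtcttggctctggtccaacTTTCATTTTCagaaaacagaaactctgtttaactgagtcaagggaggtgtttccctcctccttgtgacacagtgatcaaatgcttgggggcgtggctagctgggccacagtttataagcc

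Genes of antigen presentation, by which cells show peptides to T cells, rose or did not pass. All 11 changes past the test among 16 class I genes were rises (median 0.53), as were all 8 among 11 class II genes (median 1.24). H2-Ab1, a class II chain, was at 280.3, 378, 337 and 294 CPM in F-PRT bone, against 50.3, 108, 125 and 105 CPM in Untreated bone (log2 change 1.73, SE 0.24, adjusted p = 0.000156). Cd74, the invariant chain, changed by 1.55 and Ciita, the master regulator of class II genes, by 1.02. For class I, B2m changed by 1.08, its regulator Nlrc5 by 0.91, and H2-Q7 and H2-Q4 by 0.93 and 0.85; reads of H2 genes are shared among close relatives. With the keratinocyte covariate 5 class I genes rose, and B2m did not pass (0.0527).

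Of 25 chemokine and cytokine genes 17 rose and 4 fell, beside 15.5% and 17.2% of all genes, with a median log2 of 1.11. Cxcl13 (chr5:95956951-95961068, GRCm38), the chemokine that draws B cells, was at 28.6, 59.7, 34.4 and 40.1 CPM in F-PRT bone, against 0.759, 1.45, 0.867 and 0.737 CPM in Untreated bone. The groups were far apart, at a fitted fold of 42.2 (log2 change 5.40, SE 0.33, adjusted p = 2e-07). Cxcl9 and Cxcl10, interferon-induced chemokines for T cells, changed by 2.77 and 2.77, and Cxcl16 by 1.95. Ccl2, which draws monocytes, was at 4.53, 4.84, 4.32 and 4.35 CPM in F-PRT bone, against 0.542, 0.915, 0.267 and 0.603 CPM in Untreated bone (log2 change 2.95, SE 0.28, adjusted p = 7.39e-06), and the related Ccl12 changed by 3.41. The 4 that fell were Cxcl5 (-2.09), which draws neutrophils, and the cytokine genes Osm (-1.04), Tnf (-0.87) and Il1a (-0.83). Tgfb1 was at 238, 262, 236 and 255 CPM in F-PRT bone, against 207, 281, 303 and 332 CPM in Untreated bone, with overlap, and did not pass (log2 change -0.18, SE 0.15, adjusted p = 0.367). With the keratinocyte covariate 10 rose and 2 fell.

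Marrow stroma genes rose in 21 of 25 tested and fell in none, at a median of 1.00. Il7, the growth factor of B cell precursors, was at 25.2, 33.1, 31.3 and 30.2 CPM in F-PRT bone, against 5.10, 7.62, 8.0 and 7.10 CPM in Untreated bone. The groups did not overlap (log2 change 2.09, SE 0.15, adjusted p = 6.35e-07). Cxcl12, which holds stem cells in the marrow, was at 1909, 2257, 1933 and 2299 CPM in F-PRT bone, against 669.8, 1389, 1222 and 1397 CPM in Untreated bone (log2 change 0.84, SE 0.21, adjusted p = 0.00709), and Kitl, stem cell factor, changed by 1.05. Gas6, the ligand of the clearance receptor Axl, changed by 1.99, and Csf1, the macrophage growth factor, by 1.08. Lepr, the receptor that marks marrow stroma, changed by 0.51. Adipocyte genes rose in 17 of 23 and fell in none (median 0.85). Those 17 rises became 12 without F-PRT 4 or Untreated 2, and 20 without Untreated 3. The lipid droplet gene Plin1 was at 85.6, 82.5, 79.6 and 108 CPM in F-PRT bone, against 27, 30.2, 41 and 29.5 CPM in Untreated bone (log2 change 1.48, SE 0.17, adjusted p = 2.43e-05), the hormone gene Adipoq changed by 1.12, Lpl, the lipase of both lists, by 1.73, and the fat cell regulator Pparg by 1.18. Endothelial genes rose in 17 of 25, with Vwf as the single fall (median 0.85). Stab1, a scavenger receptor of sinusoids, was at 183, 241, 199 and 285 CPM in F-PRT bone, against 83.7, 70.7, 69.5 and 79.2 CPM in Untreated bone (log2 change 1.58, SE 0.16, adjusted p = 9.51e-06); Kdr, the main VEGF receptor, changed by 1.10, Cdh5 by 1.08, and Pecam1 (0.27) and Cldn5 (0.05) did not pass. The keratinocyte covariate left 15 stroma, 12 adipocyte and 13 endothelial genes higher and 1 stroma gene lower, and under it neither Cxcl12 nor Lepr passed (adjusted p = 0.121 for each).

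Among secreted signals, several Wnt antagonists and TGF-beta binding proteins rose. Of 22 Wnt genes 8 rose and 2 fell (median 0.48), beside 15.5% and 17.2% of all genes. The 3 largest rises were the decoy receptors Sfrp2, Sfrp1 and Sfrp5. Sfrp2 was at 37.9, 69.9, 40.4 and 38.3 CPM in F-PRT bone, against 8.03, 3.58, 6.27 and 5.23 CPM in Untreated bone (log2 change 3.03, SE 0.30, adjusted p = 8.88e-06). F-PRT 2 was the highest, and the other F-PRT libraries also lay above all Untreated ones. Sfrp1 was at 67.8, 85.9, 68.6 and 65.1 CPM in F-PRT bone, against 7.92, 15.1, 13.4 and 13.7 CPM in Untreated bone (log2 change 2.51, SE 0.18, adjusted p = 8.44e-07), and Rspo3, which strengthens Wnt signals, changed by 2.05. The falls were Lgr5, a receptor for R-spondins, at 1.12, 1.12, 1.83 and 1.68 CPM in F-PRT bone, against 5.53, 9.38, 7.67 and 5.09 CPM in Untreated bone (log2 change -2.27, SE 0.27, adjusted p = 4.53e-05), and the transcription factor gene Lef1 (-0.80), which B cell precursors express. Of 25 TGF-beta genes 17 rose and 1 fell (median 0.58), beside 15.5% and 17.2% of all genes. Fst, which binds activins, was at 36.1, 51.4, 36.1 and 41.3 CPM in F-PRT bone, against 7.59, 6.02, 8.07 and 4.35 CPM in Untreated bone (log2 change 2.67, SE 0.20, adjusted p = 1.21e-06), and Inhba, which encodes the activin A subunit, fell, at 5.06, 9.14, 7.67 and 6.97 CPM in F-PRT bone, against 23.9, 31, 32.7 and 36.2 CPM in Untreated bone (log2 change -2.10, SE 0.21, adjusted p = 9.94e-06). Ltbp2, a latent TGF-beta binding protein, changed by 1.70 and the coreceptor gene Tgfbr3 by 1.05. The 17 rises became 11 without F-PRT 2, F-PRT 4, Untreated 2 or Untreated 4, and 9 with the keratinocyte covariate, under which 5 Wnt genes rose.

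Matrix genes rose in 25 of 37 and fell in none (median 0.64), beside 15.5% and 17.2% of all genes. Podn, the small leucine-rich proteoglycan podocan, was at 23.8, 25.4, 28.6 and 26 CPM in F-PRT bone, against 4.88, 4.73, 5.34 and 5.63 CPM in Untreated bone (log2 change 2.33, SE 0.11, adjusted p = 1.49e-08). Its 4 F-PRT values lay close together and above every Untreated value. Col8a1, a network-forming collagen, changed by 2.53, the proteoglycan gene Bgn by 1.55, and the gelatinase gene Mmp2 by 1.60, while Col3a1 (0.26) and Fn1 (0.19) did not pass. The 25 rises became 17 without Untreated 2, Untreated 3 or Untreated 4, 18 without F-PRT 4 and 19 without F-PRT 2. They became 32 without Untreated 1 and 31 without the 3 libraries that stood apart. Under the keratinocyte covariate 13 rose.

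Genes of the bone cells themselves rose in part. Of 24 osteoclast genes 18 rose and 2 fell (median 0.69), of 24 osteoblast genes 8 rose and 1 fell (median 0.40), and of 20 osteocyte genes 7 rose and none fell (median 0.50). Over all genes 15.5% rose and 17.2% fell. Bglap, osteocalcin, whose reads are shared with Bglap2, was at 619, 855, 507 and 695 CPM in F-PRT bone, against 291, 339.7, 396 and 311 CPM in Untreated bone (log2 change 1.00, SE 0.15, adjusted p = 0.00025). The groups did not overlap. Col1a1, the main collagen of bone, was at 22836, 28488, 14362 and 27019.9 CPM in F-PRT bone, against 19397, 12941, 13405 and 10973 CPM in Untreated bone, with overlap. It passed narrowly (log2 change 0.71, SE 0.24, adjusted p = 0.0361), and did not pass without F-PRT 1, F-PRT 2, F-PRT 4, Untreated 2, Untreated 3 or Untreated 4 (adjusted p 0.0606 to 0.104), nor with the 8 compared libraries (0.0762), the replicate block (0.0644) or the keratinocyte covariate (0.288). Omd, osteomodulin, changed by 1.03, while the regulators Runx2 (-0.13) and Sp7 (0.22) did not pass; the 1 fall was the mineralisation phosphatase gene Phospho1 (-0.52), which did not pass without F-PRT 3. Tnfsf11, which encodes RANKL, the signal for osteoclast formation, was at 9.0, 11, 7.97 and 9.14 CPM in F-PRT bone, against 4.88, 4.65, 4.60 and 4.49 CPM in Untreated bone (log2 change 1.00, SE 0.17, adjusted p = 0.00072). Its receptor gene Tnfrsf11a (RANK) changed by 1.17 and its decoy Tnfrsf11b (osteoprotegerin) by 1.10. Sost, the Wnt inhibitor of osteocytes, was at 41.3, 52.8, 25 and 60.0 CPM in F-PRT bone, against 18.7, 31.6, 38.5 and 37 CPM in Untreated bone and did not pass (log2 change 0.50, SE 0.36, adjusted p = 0.307).

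Ctsk, the collagen-degrading cathepsin of osteoclasts, was at 549.9, 698, 315 and 703 CPM in F-PRT bone, against 413, 274, 301 and 226 CPM in Untreated bone (log2 change 0.90, SE 0.23, adjusted p = 0.00912), with F-PRT 3 inside the Untreated range. Mitf, a transcription factor of the lineage, changed by 0.92. The 2 falls, of which 1 remained without any 1 of F-PRT 2 to 4 or Untreated 1 to 3, were Itgb3 (-1.32), the integrin that osteoclasts share with platelets, and Car2 (-0.57), a carbonic anhydrase shared with red cells. The osteoblast rises were 13 without F-PRT 3 or Untreated 1, 18 without the 3 libraries that stood apart, and 5 without F-PRT 1, F-PRT 2, Untreated 3 or Untreated 4; the osteocyte rises were 11 without F-PRT 3 or Untreated 1, with 1 fall in the last; the osteoclast rises were 10 without F-PRT 2 or F-PRT 4. With the keratinocyte covariate 3 rose in each of the 3 lists, and neither Ctsk (0.149) nor Tnfrsf11b (0.233) passed.

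Cartilage genes depended on which libraries were kept. With all libraries 3 of 29 rose and 1 fell (median 0.74), beside 15.5% and 17.2% of all genes. Without F-PRT 3, 12 rose, without Untreated 1, 15, and without F-PRT 2, F-PRT 3 and Untreated 1, 22. Col2a1, the main collagen of cartilage, was at 736, 852, 134 and 1052 CPM in F-PRT bone, against 834, 289, 307 and 236 CPM in Untreated bone. F-PRT 3 lay below and Untreated 1 above the rest of its group (log2 change 0.74, SE 0.50, adjusted p = 0.28; leaving out F-PRT 3 gave 0.0346, leaving out Untreated 1 gave 0.0365, and leaving out all 3 that stood apart gave 7.45e-05). The 3 that rose were Ucma (2.50), Chad (1.17) and the master regulator Sox9 (1.06), and Sox6 (-0.76) fell, which did not pass without F-PRT 4, without Untreated 1 or without the 3 libraries that stood apart. Ucma changed by 4.10 without Untreated 1 and by 4.61 without those 3, and did not pass without F-PRT 4, Untreated 2, Untreated 3 or Untreated 4 (adjusted p 0.0564 to 0.0608). Without F-PRT 4, Untreated 2, Untreated 3 or Untreated 4, 1 rose, and with the keratinocyte covariate 0.

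Genes of tissues next to bone were measured in both groups. Of 21 keratinocyte genes 18 passed as higher (median 4.42), beside 15.5% of all genes. But 1 of the 21 was apart between the groups, beside 32.0% of all genes. This was Krt10, at 0.412, 64.5, 11.1 and 22 CPM in F-PRT bone, against 0, 0.381, 0.200 and 0.335 CPM in Untreated bone (log2 change 6.59, SE 1.41, adjusted p = 0.00314, and 0.238 with voom). Krt14 was at 0, 20.4, 2.98 and 6.22 CPM in F-PRT bone, against 0, 0, 0.0667 and 0 CPM in Untreated bone, at 0 in F-PRT 1 as in 3 Untreated libraries. Summed over the list, F-PRT bone held 32.0 to 431 CPM and Untreated bone 28.3 to 37.9 CPM. Without the 3 libraries that stood apart 5 were higher, and these genes are the covariate's own. The 1 that fell was Sfn (log2 change -0.66, SE 0.19, adjusted p = 0.0161), a p53 target and keratinocyte gene, which did not pass without Untreated 2 (0.0565), without a filter (0.0623) or with the muscle covariate (0.0502). Skeletal muscle genes summed to 6524 to 27533 CPM in F-PRT bone and 1116 to 12938 CPM in Untreated bone, and 1 of 29 passed as higher (0 without F-PRT 3, with 1 lower, and 2 without Untreated 4).

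Metabolic lists had medians near 0. Of 34 nuclear oxidative phosphorylation genes 4 rose and none fell, beside 15.5% and 17.2% of all genes (median 0.16). The 3 of smallest p, Sdha, Sdhc and Ndufs3, were at log2 0.37, 0.32 and 0.43. With the skeletal muscle covariate 0 rose (adjusted p = 0.0506, 0.0655 and 0.0774 for these 3), as without the 3 libraries that stood apart, and 1 rose under the keratinocyte covariate. The 4 rises became 2 without F-PRT 1, 1 without F-PRT 3, 0 without Untreated 2 and 8 without Untreated 4. Of 22 NRF2 redox genes 4 rose and 7 fell (median 0.01), beside 15.5% and 17.2% of all genes. Gsr, glutathione reductase, was at 128, 127, 121 and 134 CPM in F-PRT bone, against 193, 306, 337 and 369.9 CPM in Untreated bone (log2 change -1.24, SE 0.17, adjusted p = 0.000114), and Gpx1, glutathione peroxidase, changed by -1.04; neutrophils and red cells are rich in both. Me1, the NADPH-making malic enzyme, changed by 1.40. Without Untreated 4, 7 rose and 4 fell, and without Untreated 3, 4 fell. Of 22 cholesterol synthesis genes 4 fell and 2 rose, beside 17.2% and 15.5% of all genes (median -0.17, and 0.51 in TPM, as for all genes). Stard4, which encodes a sterol transfer protein, changed by -0.55; the 2 rises became 1 without F-PRT 2, Untreated 3 or Untreated 4. Of 22 immediate early genes 9 rose and 1 fell (median 0.35), beside 15.5% and 17.2% of all genes. The list included Fos (1.12), Jun (0.91) and the stress factor gene Atf3 (1.34).

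S-PRT bone was used to ask whether the F-PRT values differ from those of the standard beam. Both comparisons with Untreated bone share the same Untreated libraries, so this question was put to the direct contrast. The fit also tested S-PRT minus Untreated, which is not reported here. Of the 18848 genes, 1 passed for F-PRT minus S-PRT (0.00531%), 634 had an unadjusted p under 0.05, and DESeq2 called 21, all higher after F-PRT. The 1 gene was Slfn4 (chr11:83175186-83190216, GRCm38), a Schlafen gene of myeloid cells, at 54.2, 53.9, 46.4 and 65.6 CPM in F-PRT bone, 31.4, 28.7, 21.6 and 27.6 CPM in S-PRT bone, and 176, 150.1, 162 and 145 CPM in Untreated bone. Slfn4 thus fell against Untreated bone (log2 -1.52) and stood higher than in S-PRT bone in every library (log2 1.01, adjusted p = 0.043). It did not pass without F-PRT 1, F-PRT 2, F-PRT 4, any 1 of the 4 S-PRT libraries, Untreated 2, Untreated 3 or Untreated 4, when 0 genes were called. Next by p were Ifi44, at 11.4, 8.77, 12 and 12.3 CPM in S-PRT bone, and Ifit2, at 25.6, 25.4, 39 and 34.6 CPM in S-PRT bone, each below all F-PRT values given above (adjusted p = 0.123 for both). Ifit3 stood at 25.8, 14.4, 25.7 and 27.5 CPM in S-PRT bone (log2 1.09 for F-PRT minus S-PRT, adjusted p = 0.611). These adjusted p-values are from edgeR. With DESeq2 they were 1.19e-05 for Ifi44, 1.23e-05 for Ifit2 and 0.00528 for Ifit3. Over the 44 interferon genes none passed by edgeR in this contrast, 44 of 44 had a positive difference, and the median was 0.60 against 0.006 over all genes. DESeq2 called further interferon genes in it, among them Ifit1 (adjusted p = 0.00994), Irf7 and Stat2 (0.012 for each). Their mean log2 CPM was 5.65 to 5.99 in F-PRT bone and 5.26, 4.87, 5.35 and 5.26 in S-PRT bone. S-PRT 2 was also the lowest S-PRT library for the macrophage list, at 5.66 against 6.50 to 6.56. Keratinocyte RNA was at -0.91 to 4.00 in F-PRT and -0.29 to 2.03 in S-PRT bone, and this contrast was not fitted with that covariate. Cdkn1a was at 119.7, 129.7, 119 and 153 CPM in S-PRT bone, within the range of F-PRT bone.

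**Figure D4:**
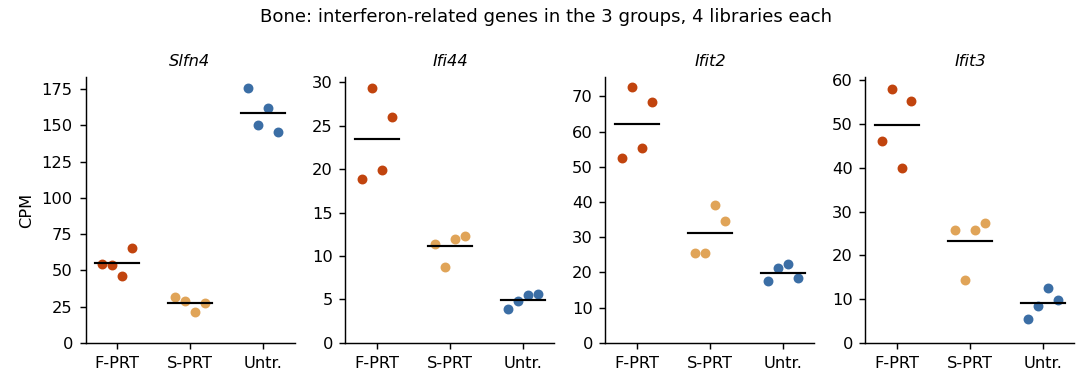
CPM of Slfn4, Ifi44, Ifit2 and Ifit3 in F-PRT, S-PRT and Untreated bone, 1 point per library and a line at each mean. F-PRT lies between the other groups for Slfn4 (46.4 to 65.6 CPM) and above both for Ifi44, Ifit2 and Ifit3.

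The F-PRT effect was set against that in skin for the 16 panel genes, in 1 fit of all 24 libraries, in which the bone effect minus the skin effect passed for 2212 of 20754 genes (10.7%). Skin Untreated 1 stood apart, with 10.9% of its counts in ribosomal RNA and related models, against 1.22% to 1.41% in the other skin Untreated libraries. When 1 F-PRT or Untreated library was left out, adjusted p reached 0.000202 for Cdkn1a, 0.000133 for Trp53inp1, 0.0419 for Mdm2 and 0.00271 for Pf4. Cdkn1a was at log2 2.98 in bone and 0.89 in skin, a difference of 2.08 (SE 0.28, adjusted p = 3.76e-05). Trp53inp1 was at 0.25 in bone and 2.04 in skin (difference -1.79, SE 0.22, adjusted p = 2.06e-05), and Mdm2 at 0.23 and 0.72 (-0.49, SE 0.12, 0.014). Bone thus stood higher than skin for the arrest gene and lower for these 2 feedback genes, and Ccng1 was at 1.52 in bone and 1.73 in skin (difference -0.21, SE 0.28, 0.712). Pf4 was at -1.77 in bone and 0.99 in skin (difference -2.76, SE 0.50, 0.000876), and Hba-a1 at -1.63 and 0.53 (-2.16, SE 0.69, 0.0479, but 0.026 to 0.095 when 1 library was left out, and over 0.05 in 13 of those 16 fits). Ifit3, at 2.48 in bone and 1.31 in skin, did not pass (difference 1.17, SE 0.45, 0.105), nor did Mki67, at -0.79 and -0.85 (0.06, SE 0.38, 0.95). The other 8 panel genes did not pass either.

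**Figure D5:**
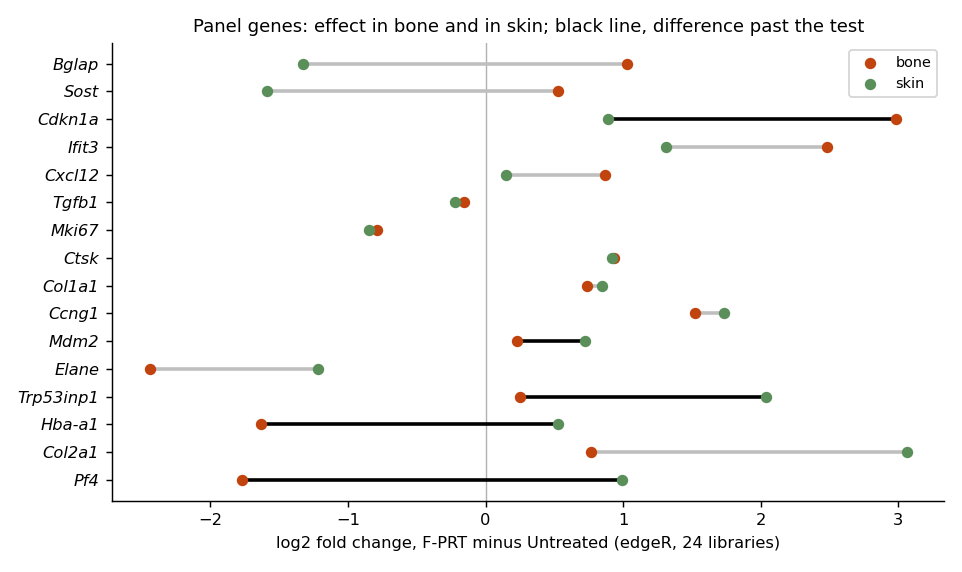
Log2 change, F-PRT minus Untreated, of the 16 panel genes in bone and in skin; a black line joins the 2 effects where their difference passed the test. Cdkn1a lies higher in bone (2.98 in bone against 0.89 in skin), and Trp53inp1 lower (0.25 in bone against 2.04 in skin).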

How the data were processed

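The authors deposited 1 table per library with expected counts and TPM for 55471 genes, per the file headers; the submitters' processing notes name RSEM, STAR, cutadapt and FastQC with build GRCm38, but versions, roles, annotation and strand setting are not stated in them. Without a stated strand, reads of overlapping and antisense genes cannot be told apart. The deposited expected counts were rounded to whole numbers; TPM served for levels and a scale check, with a pseudocount of 1. The GENCODE M21 annotation supplied names and positions for 99.57% of identifiers. Genes passing filterByExpr were tested with edgeR 4.0.16 (R 4.3.3), a quasi-likelihood F test with TMM scaling on the 12 bone libraries and Benjamini-Hochberg adjustment at 0.05; skin entered a fit of all 24. Alternatives used DESeq2 1.42.0, limma 3.58.1, other filters, a replicate block and libraries left out. The workflow was tested on simulated data.

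The members, the 37 gene lists and the tests were chosen with earlier results of these data known, so list counts are descriptions. Genes were named by rule: a panel of 16; the 8 largest rises and 8 largest falls at 2 CPM or more without overlap; the 6 of smallest p; and up to 3 of smallest p from each list with 2 or more called; some of these are not reported here. All other genes with values, the gene families and the printed promoters were chosen after their values were seen. Replicate pairs within the 2 groups differed by more than counting error (chi-square per degree of freedom 9.54 to 104), so no library was counted as a repeat.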

Additional observations from a re-analysis of the deposited data

Results flagged for a closer look

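Among 256 pairs of a named gene and a group of 4 libraries, 17 held a library far from the other 3, where chance gives about 1 in 20; 9 were in F-PRT and 8 in Untreated bone, and all 8 of the Untreated ones were Untreated 1. In F-PRT 1 the high values were Elane at 53.7 CPM (39.9 to 40.5 in the others), Hba-a1 at 4084 CPM (2481 to 2753), Myb at 58.3 CPM (46.2 to 48.2) and Padi4, a granulocyte enzyme gene, at 7.11 CPM (4.84 to 5.17). In F-PRT 2 Sfrp2 stood at 69.9 CPM (37.9 to 40.4), Sfrp1 at 85.9 CPM (65.1 to 68.6), Rspo3 at 32.9 CPM (21.0 to 22.9) and Syne1 low at 125 CPM (137 to 139), and in F-PRT 4 Nlrc5 stood at 109.6 CPM (68.7 to 75.7). In Untreated 1 the high values were Col2a1 at 834 CPM (236 to 307 in the others), Slc25a37 at 1733 CPM (1157 to 1231) and the cartilage gene Ucma at 1.63 CPM (0.0762 to 0.201). The low ones in Untreated 1 were Pf4 at 49.0 CPM (72.5 to 77.0), Ppbp at 582 CPM (679 to 693), Olfm4 at 17.8 CPM (55.0 to 56.3), Eomes at 2.06 CPM (3.13 to 3.33) and Lpl at 156 CPM (235 to 244).

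The F-PRT effect differed between bone and skin by the test of the interaction for 5 of the 16 panel genes. The log2 differences, bone minus skin, were 2.08 for Cdkn1a, -0.49 for Mdm2, -1.79 for Trp53inp1, -2.16 for Hba-a1 and -2.76 for Pf4.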

How the results depend on the processing

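Against 6161 calls (2925 higher, 3236 lower), the keratinocyte covariate gave 2549 (1166 and 1383), and 40.5% of the 6161 were called there; the covariate differs between the groups, and the part of each cannot be told apart. Leaving out 1 bone library gave 4803 to 6727 calls, voom 7879, DESeq2 6605 and the 3 libraries that stood apart left out 4669. No gene called in both turned its sign in any alternative, all of which used counts. In deposited TPM, where the median of all genes was 0.51 higher in F-PRT bone, fewer falls kept their sign. There 1744 of the 3236 lower genes and 2925 of the 2925 higher genes did so. Without a filter 3179 rose and 2336 fell, so 57.6% of calls were rises against 47.5%. With the replicate number as a block 5625 genes were called; the numbers do not pair the libraries (r of same-numbered deviations -0.10 to 0.19, 3 of 8 libraries correlating best with their own number). For F-PRT minus S-PRT, 1 call became 0 with the 8 compared libraries or the replicate block, 21 with DESeq2, and 0 to 1 when a library was left out. Of 123 called named genes 102 kept their call in every alternative, and 20 lost it under the keratinocyte covariate. Among genes that did not pass, Pcna moved to 0.00 with that covariate, and the sign turned for Gata1 (0.04) and Klf1 (0.10). The bone minus skin difference ran from -0.07 to 0.19 for Mki67, -0.42 to 0.12 for Col1a1, -0.41 to 0.35 for Ctsk (-0.14 with the replicate block) and -0.05 to 0.16 for Tgfb1 when 1 library was left out; the cause was not tested. Leaving out structural RNA models gave 6152 calls; that alternative, the F-PRT minus S-PRT block and omissions, and the omissions for bone minus skin were added after the data were seen. Depth was lowest in Untreated 1, at 10909649 counts, which limits low genes there.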

Other observations

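The gene families here were chosen after their values were seen, and some of their members, such as Gbp2, Ms4a2 and Ms4a3, also belong to the lists. The guanylate-binding proteins, interferon-induced GTPases that attack pathogen compartments, rose in 9 of 9 tested with a median log2 change of 1.41; Gbp2 was at 46.3, 47.2, 49.7 and 65.7 CPM in F-PRT bone, against 11.8, 14.9, 21.9 and 17.8 CPM in Untreated bone, and Gbp6 at 34.4, 40.0, 43.2 and 59.3 CPM in F-PRT bone, against 8.57, 10.7, 10.3 and 11.7 CPM in Untreated bone. Of 13 Ms4a genes, which encode membrane proteins of leukocytes, 8 rose and 2 fell: Ms4a6b of macrophages was at 76.2, 104, 93 and 98 CPM in F-PRT bone, against 17.2, 35.4, 43.9 and 36.8 CPM in Untreated bone, while Ms4a3 of granulocyte precursors was at 14, 11.3, 12 and 11.6 CPM in F-PRT bone, against 20.2, 53.1, 67.4 and 65.3 CPM in Untreated bone and Ms4a2, a chain of the IgE receptor, at 4.12, 3.72, 3.35 and 3.11 CPM in F-PRT bone, against 4.45, 9.91, 8.80 and 9.38 CPM in Untreated bone. Of 12 Cd300 genes, receptors for lipids on myeloid cells, 8 rose and 3 fell; Cd300ld3 was at 19.9, 23.9, 21.3 and 18 CPM in F-PRT bone, against 0.325, 2.59, 2.73 and 5.56 CPM in Untreated bone, and Cd300lf, a receptor of neutrophils and other myeloid cells, at 22.3, 20.5, 23.8 and 25.3 CPM in F-PRT bone, against 46.5, 64.4, 68.2 and 77.6 CPM in Untreated bone. Of 9 Schlafen genes 4 rose and 2 fell, beside 15.5% and 17.2% of all genes.

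Variable segments of antibody genes showed few calls, beside 15.5% higher and 17.2% lower of all genes. Of 32 heavy chain segments 1 rose and 1 fell, and of 63 kappa segments 3 rose and 1 fell, at medians of -0.29 and -0.03. Of 79 ribosomal protein genes 2 rose and 1 fell, and of 13 mitochondrially encoded genes 0 passed by edgeR, beside 32.7% of all genes that passed.

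Among transcripts that mostly lack polyA tails, 59 of 65 clustered histone genes fell (median -0.88) and 50 of 65 small nucleolar RNA models fell (median -1.31), and none rose in either. The share of counts in structural RNAs was also lower in F-PRT bone, at 3.40% to 4.58% against 5.71% to 11.5% in Untreated bone. The histone and small nucleolar RNA levels were not set against that share by library, and its part in their falls was not tested. Antisense models passed as lower in 128 of 778 and as higher in 15, and models of the TEC biotype in 239 and 19 of 1367, beside 17.2% lower and 15.5% higher of all genes, and protein-coding genes rose in 2809 and fell in 2481 of 14735.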
